A study of Homo sapiens with 6 samples.

Results

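The genes of HLA class I antigen presentation followed here are HLA-B, HLA-C, HLA-E, B2M, TAP1, TAP2, TAPBP, PSMB8 and PSMB9, which are 9 of the 30735 genes with a value in each deposited file. They were chosen by symbol, taking for each the row whose Ensembl identifier is the gene on the primary assembly. No measured value entered that rule, but the group was chosen with earlier results of these data known. All 9 passed the filter on low values (at least 1 RPKM in at least 3 of 6 samples) and were tested, as were 12527 genes in all. PANC-1, an established line from a human pancreatic ductal adenocarcinoma, was grown in DMEM with fetal bovine serum and transfected by lipofection, with CD73 siRNA in 3 samples and with negative control siRNA in 3. CD73 is a surface enzyme that forms adenosine and is encoded by NT5E. No time of harvest, and no siRNA sequence, was given in the sources used here, and the CD73 siRNA carries a single catalogue number in the study's methods. Levels are in RPKM, reads scaled by merged exon length and by library total, and library totals lay between 15009113 and 16836208 reads.

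Class I molecules carry short peptides from inside the cell to its surface, where CD8+ T cells and natural killer cells read them. The proteasome cuts proteins into peptides, the TAP transporter moves them into the endoplasmic reticulum, and tapasin holds an empty heavy chain and its light chain, β2-microglobulin, beside the transporter until a peptide fits. Most genes of this route are inducible by interferon-γ and by TNF through NF-κB, and many tumors carry low levels of them.

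In GENCODE release 29 (GRCh38), B2M (ENSG00000166710) lies on chromosome 15 from 44711487 to 44718877 on the forward strand, and the other 8 genes lie within 2824921 bp of the major histocompatibility complex on chromosome 6. HLA-E (ENSG00000204592, 30489467 to 30494205) is on the forward strand. HLA-C (ENSG00000204525, 31268749 to 31272130) and HLA-B (ENSG00000234745, 31269491 to 31357188) are on the reverse strand and share 35 exonic bases. TAP2 (ENSG00000204267, 32821833 to 32838780), PSMB8 (ENSG00000204264, 32840717 to 32844703) and TAP1 (ENSG00000168394, 32845209 to 32853978), all on the reverse strand, form with PSMB9 (ENSG00000240065, 32844136 to 32859585, forward strand) a cluster of 37753 bp. TAPBP (ENSG00000231925, 33299694 to 33314387, reverse strand) is at the far end. The RefSeq starts of TAP1 (32853704) and PSMB9 (32854192) point away from each other and are 488 bases apart.

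The promoters below are shown because the 2 motifs in capitals are the letters through which this gene group is known to be reached by interferon (ISRE core: TTTC, any 2 bases and TTTC again) and by TNF (the NF-κB consensus). RefSeq windows (GRCh38.p14) from 250 bases before to 50 after the start were found for 8 of the 9 genes, in 10 windows, and both strands were searched. Each sequence runs 5′ to 3′ on the gene's strand with 8 flanking bases in lower case.
B2M, ISRE core then NF-κB motif: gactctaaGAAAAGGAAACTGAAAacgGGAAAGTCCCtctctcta
HLA-B, NF-κB motif: gcagcgttGGGGATTCCCCactcccct
HLA-C, NF-κB motif: ccgcgttgGGGATTCTCCactcccct
TAP1, ISRE core: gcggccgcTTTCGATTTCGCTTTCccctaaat
TAP1, NF-κB motif: ctgttcctGGGACTTTCCgagagccc
TAP2, ISRE core: ggggaagcGAAAGCGAAAgctgcccg
TAPBP, NF-κB motif: accagagcGGGGATTTCCaccgcccc
TAPBP, ISRE core: ctttggagGAAAGTGAAAGTGAAAggag

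The B2M window is chr15:44711365-44711409 on the forward strand. The ISRE capitals in B2M, TAP1 and TAPBP and the NF-κB capitals in HLA-B each merge overlapping matches, while no ISRE match overlaps an NF-κB match. On the reverse strand, the HLA-B window is chr6:31357338-31357364 and that of HLA-C chr6:31272247-31272272. The TAP1 windows are chr6:32853815-32853846 and chr6:32853759-32853784, that of TAP2 is chr6:32838780-32838805, and those of TAPBP are chr6:33314117-33314142 and chr6:33314079-33314106. The ISRE core was in the promoter of 5 of the 8 genes (B2M, TAP1, TAP2, TAPBP and PSMB8, in the last across the start site), against 3.57% of 35116 promoters of the same length. The NF-κB motif was in that of B2M, HLA-B, HLA-C, TAP1 and TAPBP, against 11.3% of promoters. A letter match is a description of these windows and not evidence of binding.

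Knockdown of the targeted gene was measured first. NT5E was at 3.36, 6.85 and 8.22 RPKM in CD73 siRNA replicates 1, 2 and 3 and at 13.96, 13.87 and 17.14 RPKM in negative control replicates 1, 2 and 3. No siRNA sample reached a control sample, and replicate 1 was the lowest. Of the ductal epithelial markers, 5 of 6 passed the filter, and KRT7 was at no more than 0.107 RPKM in any sample. KRT8 and KRT18 were past the threshold defined below and lower in the siRNA samples (log2 fold changes -1.27 and -0.68, adjusted p = 0.303 for each). The highest of the 6 leukocyte markers with a value was at 0.308 RPKM, and their summed level was 0.129 to 0.586 RPKM with siRNA and 0.398 to 0.578 RPKM in the controls. Of the 4 fibroblast markers with a value only COL1A1 passed the filter, at 9.17, 8.97 and 16.2 RPKM with siRNA and 17.7, 10.5 and 19.1 RPKM in controls (log2 fold change -0.44, adjusted p = 0.537). It was not past the threshold but was lower with siRNA at all 3 replicate numbers, as most of the class I genes were. The summed level of the 4 was 9.01 to 16.3 and 10.6 to 19.2 RPKM, and COL1A2, LUM and PDGFRB were at or near 0. Endothelial markers reached at most 0.0611 RPKM. The part of these markers, or of KRT8 and KRT18, in the class I values was not tested. In bulk RNA, fewer cells that express a gene and less RNA per cell cannot be told apart.

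The question for this gene group is whether class I presentation transcripts differed between cells with less CD73 and control cells. All 9 mean levels were lower with CD73 siRNA, but only B2M was past the threshold used here, an unadjusted p below 0.01 in limma. The study's methods name neither the test nor an adjustment for the sequenced genes. That threshold called 3.13% of all tested genes (1.31% of all as lower and 1.82% as higher). After Benjamini-Hochberg adjustment over all genes none of the 9 was past 0.05 (adjusted p from 0.303 to 0.615), as against 0.00798% of all genes, which is 1 gene. The median log2 fold change of the 9 genes was -0.33, beside 0.01 over all tested genes, of which 48.0% were below 0. B2M, HLA-B, TAP1 and TAP2 were lower in every siRNA sample than in any control, a separation found in 8.07% of tested genes, and the other 5 overlapped.

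B2M, past the threshold in all 12 alternative fits as well, encodes the light chain shared by all classical class I molecules. It stood at 23.3, 40.2 and 37.1 RPKM in CD73 siRNA replicates 1, 2 and 3. In negative control replicates 1, 2 and 3 it was at 76.01, 55.1 and 65.8 RPKM. The groups did not overlap. The siRNA sample with the least NT5E also had the least B2M, but siRNA replicate 3 had more NT5E than replicate 2 and less B2M. Among the controls, replicate 3 had the most NT5E and replicate 1 the most B2M. B2M thus fell to 51.1% of its control level, from 65.6 ± 10.48 to 33.5 ± 8.98 RPKM (SD, n = 3 each). Its log2 fold change was -0.97 (SE 0.209, 95% confidence interval -1.455 to -0.49), with unadjusted p = 0.00165 and adjusted p = 0.303 in limma, and the exact permutation test gave its smallest possible p of 0.1. Among tested genes, 28 (0.224%) had a lower fold change. Within replicate numbers 1, 2 and 3 the difference was -1.66, -0.44 and -0.81 on the log2 scale. About 2279 to 7411 reads stood behind each value.

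**Figure D1:**
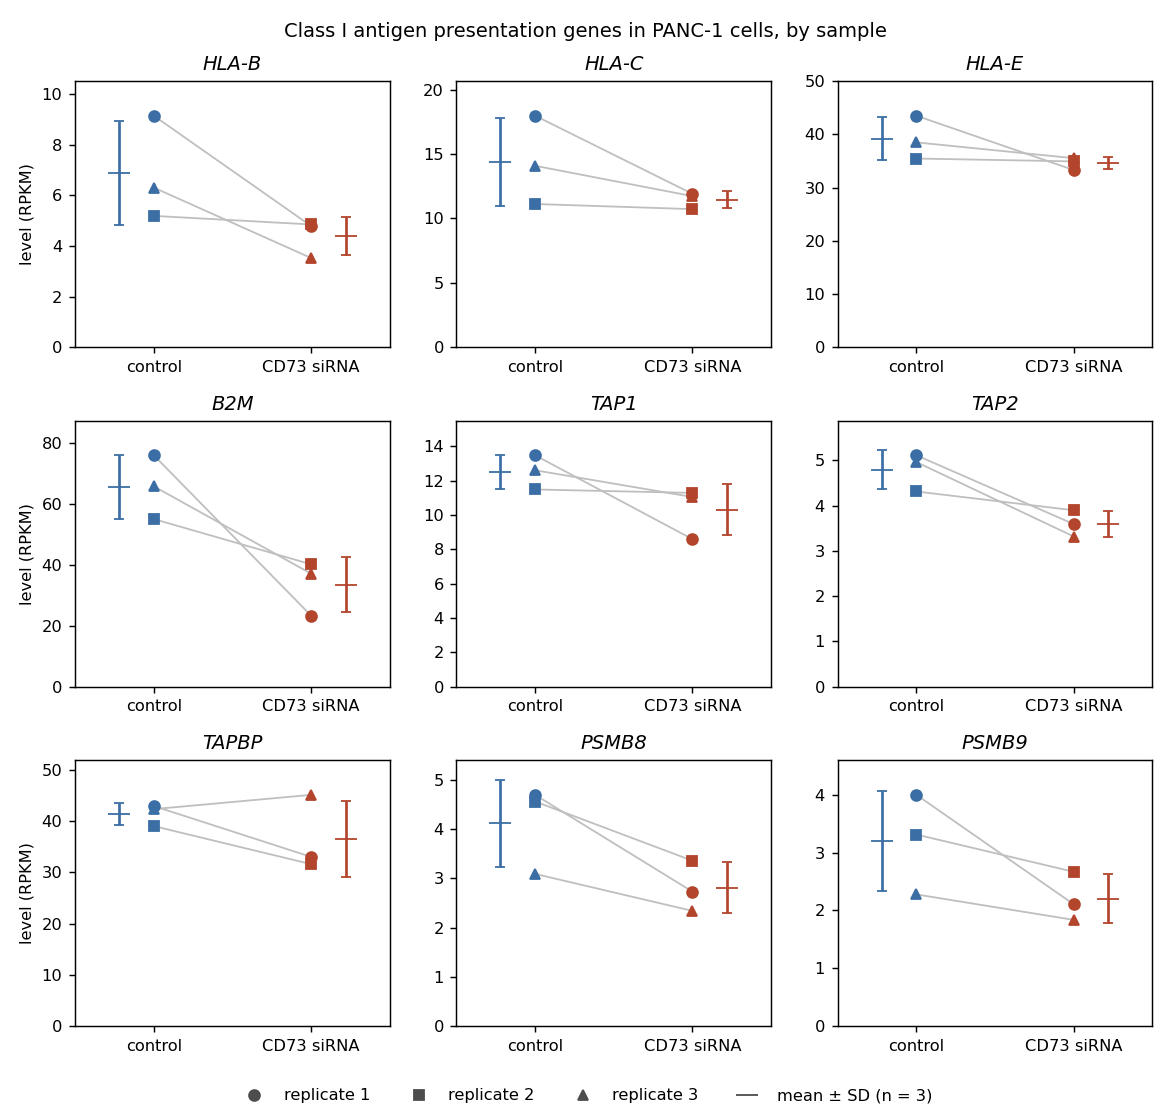
Level in RPKM (vertical axes, from 0) of each of the 9 genes in the 3 negative control (blue) and 3 CD73 siRNA (red) samples of PANC-1; grey lines join equal replicate numbers and bars give mean ± SD. B2M fell from 55.1 to 76.01 RPKM in controls to 23.3 to 40.2 RPKM, HLA-B, TAP1 and TAP2 were also separated, and TAPBP was highest in siRNA replicate 3.

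The heavy chains bind the peptide itself. HLA-B, a classical heavy chain, was at 4.79, 4.85 and 3.52 RPKM with siRNA and at 9.155, 5.19 and 6.31 RPKM in controls. Its groups did not overlap, although siRNA replicate 2 and control replicate 2 were only 0.08 apart on the log2 scale. Its log2 fold change was -0.53 (SE 0.196, interval -0.98 to -0.08), with adjusted p = 0.365 in limma and p = 0.1 in the exact permutation test, and it was not past the threshold. Without control replicate 2 it was -0.69 and past the threshold. Of the exonic bases of HLA-B, 18.9% are shared with another annotated gene, chiefly an antisense one, and 21.0% of the 50-base words of its principal transcript occur in transcripts of other genes, so its reads may not all be its own.

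HLA-C, the other classical heavy chain of the group, was at 11.9, 10.7 and 11.7 RPKM with siRNA and at 17.98, 11.1 and 14.1 RPKM in controls. Control replicate 2 lay among the siRNA samples. The log2 fold change was -0.28 (SE 0.162, interval -0.66 to 0.09, adjusted p = 0.506, exact permutation p = 0.3). HLA-E, which presents leader peptides of other class I chains to natural killer cells, was at 33.3, 34.9 and 35.5 RPKM with siRNA and at 43.5, 35.46 and 38.5 RPKM in controls. Here the groups met at about 35.5 RPKM, and the log2 fold change was -0.17 (SE 0.105, interval -0.41 to 0.07, adjusted p = 0.534, exact permutation p = 0.2).

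The balance of light to heavy chain transcripts did not overlap between the groups. B2M divided by the sum of HLA-B, HLA-C and HLA-E was 0.467, 0.796 and 0.731 in siRNA replicates 1, 2 and 3. In the controls it was 1.08, 1.06 and 1.12, a narrow range beside that of the siRNA samples. The means were 0.665 ± 0.175 and 1.09 ± 0.0283 (SD, n = 3 each, exact permutation p = 0.1, the smallest 3 against 3 allows). On the log2 scale the difference was -0.75, and it was -1.205, -0.42 and -0.61 within replicate numbers 1, 2 and 3. The unequal change within a sample does not depend on how samples were scaled to each other. The level of the ratio, near 1 in controls, does depend on the lengths used. Merged exons are 3.57 times the principal transcript in B2M and 1.97, 1.63 and 1.14 times in HLA-B, HLA-C and HLA-E.

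TAP1 and TAP2 are the subunits of the peptide transporter. TAP1 was at 8.59, 11.3 and 11.04 RPKM with siRNA and at 13.5, 11.5 and 12.6 RPKM in controls. The groups were separated by a small gap, and replicate number 2 differed by only -0.02 on the log2 scale. Its log2 fold change was -0.26 (SE 0.128, interval -0.56 to 0.03, adjusted p = 0.449, exact permutation p = 0.1). TAP2 was at 3.59, 3.90 and 3.32 RPKM with siRNA and at 5.11, 4.31 and 4.96 RPKM in controls, again without overlap. Its log2 fold change was -0.33 (SE 0.114, interval -0.59 to -0.07, adjusted p = 0.353, exact permutation p = 0.1). Of the exonic bases of TAP2, 32.3% are shared with AL669918.1, a gene model on the same strand that reads through it, and 80.2% of the 50-base words of its principal transcript also occur in that model. Reads of TAP2 may therefore not all have been counted for it. For TAP1, 9.5% of the exonic bases are shared with the antisense PSMB8-AS1.

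TAPBP encodes tapasin, which bridges the transporter and the heavy chain. It was at 33.0, 31.6 and 45.1 RPKM with siRNA and at 42.9, 39.0 and 42.3 RPKM in controls. Replicates 1 and 2 were below the controls while siRNA replicate 3 was the highest of all 6 samples, the only value among the 9 genes to be so in an siRNA sample. The log2 fold change was -0.19 (SE 0.143, interval -0.52 to 0.14, adjusted p = 0.615, exact permutation p = 0.4).

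PSMB8 and PSMB9 encode catalytic subunits of the immunoproteasome, the interferon-inducible form of the proteasome. PSMB8 was at 2.73, 3.36 and 2.34 RPKM with siRNA and at 4.69, 4.56 and 3.09 RPKM in controls. Control replicate 3 lay below siRNA replicate 2, yet each siRNA sample was below the control of its own number, with differences of -0.61, -0.35 and -0.29 on the log2 scale. The log2 fold change was -0.42 (SE 0.168, interval -0.81 to -0.03), with adjusted p = 0.385 in limma and p = 0.2 in the exact permutation test. With the replicate number as a block PSMB8 was past the threshold (adjusted p = 0.119), which then called 7.57% of all genes, 3.3% as lower. Without control replicate 3 the log2 fold change was -0.57 and also past the threshold.

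PSMB9 was at 2.11, 2.67 and 1.84 RPKM with siRNA and at 3.998, 3.31 and 2.28 RPKM in controls. It followed PSMB8 closely from sample to sample (Pearson r = 0.979 over 6 samples, a description of neighbors in 1 locus that share 139 exonic bases). Its log2 fold change was -0.38 (SE 0.182, interval -0.79 to 0.04, adjusted p = 0.449, exact permutation p = 0.2). These were the least sequenced of the 9 genes, with about 118 to 226 reads behind each PSMB8 value and 95 to 197 behind each PSMB9 value.

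**Figure D2:**
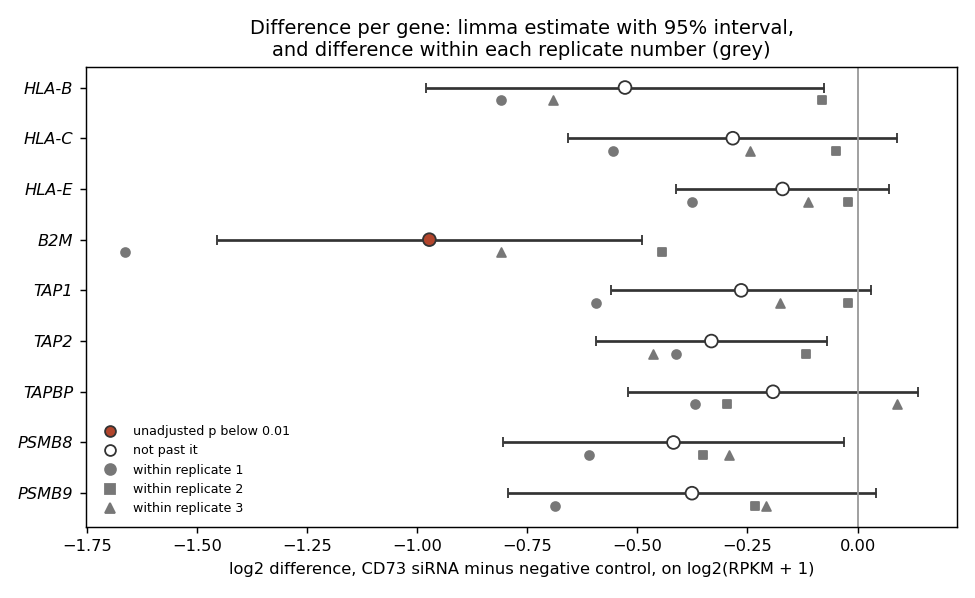
Difference between CD73 siRNA and negative control on log2(RPKM + 1) (horizontal axis) for each gene, with the limma estimate and 95% interval (large points and bars) and the difference within each replicate number (small grey symbols). B2M, at -0.97, is the filled point past an unadjusted p of 0.01, and only TAPBP in replicate 3 (0.09) lies right of 0.

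Within replicate numbers, 8 of the 9 genes were lower with siRNA in all 3, as were 24.5% of tested genes, and TAPBP was the exception. The size differed by number. The median difference of the 9 genes was -0.59 in replicate 1, -0.12 in replicate 2 and -0.25 in replicate 3 on the log2 scale, beside 0.02, -0.001 and 0.01 over all tested genes. Control replicate 1 was the highest of all 6 samples for 8 of the 9 genes, and control replicate 2 was the lowest control for 7. The lowest of the 6 values was always in an siRNA sample, in replicate 1 for 3 genes (HLA-E, B2M and TAP1), in replicate 2 for 2 and in replicate 3 for 4. Without control replicate 1, the log2 fold change of B2M was -0.86, still past the threshold, and that of HLA-B -0.33, not past it.

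The levels spanned a wide range in the controls. B2M was highest, at 65.6 ± 10.48 RPKM, and the ranges of TAPBP (41.4 ± 2.10 RPKM) and HLA-E (39.15 ± 4.065 RPKM) overlapped below it. HLA-C (14.4 ± 3.44 RPKM) and TAP1 (12.5 ± 0.998 RPKM) followed and overlapped each other. HLA-B came next at 6.89 ± 2.04 RPKM, separate from its neighbors, though its lowest control (5.19 RPKM) was close to the highest of TAP2 (5.11 RPKM). TAP2 (4.80 ± 0.425 RPKM), PSMB8 (4.11 ± 0.890 RPKM) and PSMB9 (3.20 ± 0.866 RPKM) followed (SD, n = 3 throughout). The range of PSMB8 overlapped those of TAP2 and PSMB9, while TAP2 was above PSMB9 without overlap. The scale divides by all annotated exons of a gene, and these exceed the principal transcript from 1.14 times in HLA-E to 3.93 times in PSMB9. Per length of the principal transcript, B2M was at 234.0 ± 37.35, TAPBP at 110.9 ± 5.625 and HLA-E at 44.8 ± 4.65 reads on the same scale in controls. On that scale HLA-B (13.58 ± 4.03) was no longer apart from PSMB9 (12.55 ± 3.40), TAP2 (12.3 ± 1.09) and PSMB8 (10.97 ± 2.37).

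The constitutive catalytic subunits, which PSMB8 and PSMB9 replace, were far more abundant and were not past the threshold. PSMB5, the counterpart of PSMB8, was at 106.5 ± 2.95 RPKM with siRNA and 104.3 ± 4.645 RPKM in controls (log2 fold change 0.03, adjusted p = 0.912). PSMB6, the counterpart of PSMB9, was at 79.0 ± 3.16 and 70.8 ± 5.07 RPKM (0.16, adjusted p = 0.524). PSMB8 was 2.55%, 3.247% and 2.14% of PSMB5 in siRNA replicates 1, 2 and 3, and 4.29%, 4.55% and 2.99% in the controls. PSMB9 was 2.62%, 3.54% and 2.26% of PSMB6 with siRNA, and 5.23%, 4.77% and 3.42% in the controls. Both ratios were lower with siRNA at each replicate number, while over all 6 samples the groups overlapped (exact permutation p = 0.2 for each). The size of these percentages depends on the lengths used. Merged exons are 2.67 and 3.93 times the principal transcript in PSMB8 and PSMB9, and 1.36 and 1.7 times in PSMB5 and PSMB6. Per length of the principal transcript, control means were 10.97 for PSMB8 beside 142.2 for PSMB5, and 12.55 for PSMB9 beside 120.3 for PSMB6. Of the third pair, PSMB7 was at 113.5 ± 13.4 and 136.4 ± 2.57 RPKM (-0.27, adjusted p = 0.382), without overlap. Its inducible counterpart PSMB10 was at 0.235, 0.206 and 0.353 RPKM with siRNA and 0.673, 0.452 and 0.539 RPKM in controls, a separation that rests on 6 to 20 reads, below the filter and not tested.

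**Figure D3:**
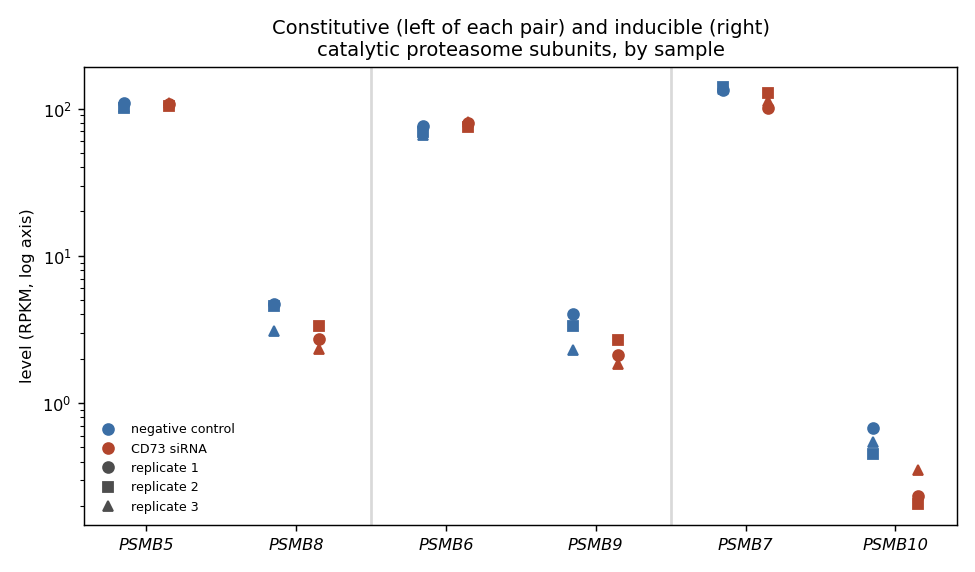
Level in RPKM (log axis) of the constitutive subunits PSMB5, PSMB6 and PSMB7 and of the inducible PSMB8, PSMB9 and PSMB10, each beside its counterpart, in the 3 control (blue) and 3 CD73 siRNA (red) samples. PSMB8 and PSMB9 stay between 1.84 and 4.69 RPKM while their counterparts PSMB5 and PSMB6 stay between 66.6 and 109.3 RPKM.

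**Figure D4:**
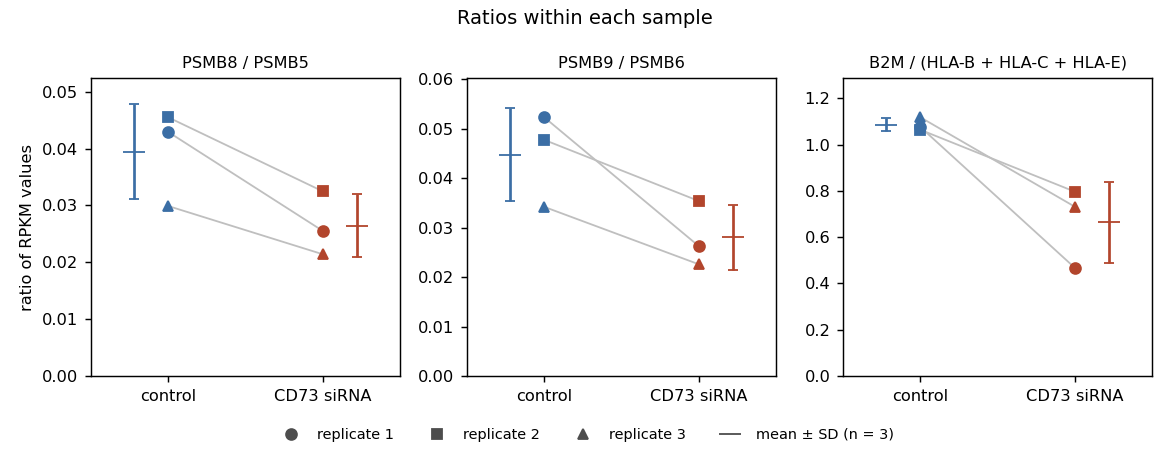
Ratio of RPKM values within each sample (vertical axes, from 0) for PSMB8 to PSMB5, PSMB9 to PSMB6 and B2M to the summed heavy chains HLA-B, HLA-C and HLA-E; grey lines join equal replicate numbers and bars give mean ± SD. Only the B2M ratio separates the groups, 0.467 to 0.796 with siRNA and 1.06 to 1.12 in controls.

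Other class I and class I-like genes numbered 16, of which 9 were tested. PROCR, the class I-like endothelial protein C receptor, was the 1 past the threshold, and it fell from 9.67 ± 1.44 to 6.83 ± 0.458 RPKM (SD, n = 3 each, log2 fold change -0.44, adjusted p = 0.313). With 1 sample left out, it was past the threshold in 1 of 6 fits. MICB, a stress-induced ligand of the receptor NKG2D, was at 29.8, 28.6 and 37.2 RPKM and at 75.25, 35.05 and 58.15 RPKM (log2 fold change -0.74, adjusted p = 0.353), with overlap. With the block, under which 3.3% of all tested genes were past the threshold and lower, so were MICB (adjusted p = 0.119) and the NKG2D ligands ULBP2 (adjusted p = 0.12) and ULBP3 (adjusted p = 0.113). The other tested ligands of that receptor, MICA (log2 fold change 0.05, adjusted p = 0.913) and ULBP1 (-0.04, adjusted p = 0.965), were not past it in either fit. The median of the list was -0.43.

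A list of chaperones, trimming enzymes and other genes, mostly of the endoplasmic reticulum, had a median of 0.01, the same as all tested genes. Of its 15 genes 13 were tested, and 6 of those were below 0. TAP1, TAP2 and TAPBP were counted in the class I group and not here. ERAP1, which trims peptides, had a log2 fold change of -0.27 (adjusted p = 0.455). CALR and CANX, the most abundant chaperones of the list, had log2 fold changes of 0.26 (adjusted p = 0.609) and 0.08 (adjusted p = 0.734). GANAB, a glucosidase that trims glycans of new glycoproteins, was the 1 past the threshold and rose from 51.2 ± 20.7 to 97.5 ± 8.72 RPKM (SD, n = 3 each, log2 fold change 0.99, adjusted p = 0.303), a call that held in 3 of 6 fits with 1 sample left out. Catalytic, activator and assembly genes of the proteasome other than PSMB8 and PSMB9 had a median of 0.05 over 11 tested of 12, and none was past the threshold. Among them PSMB7, PSME2 and PSME3 were lower in every siRNA sample than in any control, and PSMB4 was higher.

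Of a list of class I transcription regulators, mostly transcription factors and chromatin genes, 17 of 19 were tested. Of these, 1 was past the threshold and 14 were below 0 (median -0.12). The counts include SUSD6 (log2 fold change -0.405, adjusted p = 0.382), which is neither. IRF2, which binds interferon response elements, fell from 8.79 ± 1.765 to 5.07 ± 0.767 RPKM (SD, n = 3 each, log2 fold change -0.68, adjusted p = 0.303). It was not past the threshold without siRNA replicate 1 (-0.60) and was past it in the other 5 fits with a sample left out. RELA, a subunit of NF-κB and among the most abundant of the list, was not past it (-0.17, adjusted p = 0.676). NLRC5, the class I transactivator, was at 0.0653 to 0.141 RPKM and was not tested. With the block NFKB1, another subunit of NF-κB, was also past the threshold (log2 fold change -0.34, adjusted p = 0.129). IRF1 had the lowest log2 fold change of the list (-0.70, adjusted p = 0.368) and was not past the threshold in either fit. It was at 0.949, 1.60 and 0.541 RPKM with siRNA and at 3.53, 1.81 and 1.63 RPKM in controls, without overlap.

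Receptors and kinases of interferon and TNF signaling had 2 of 10 tested genes past the threshold, both lower, beside 1.31% of all tested genes, and a median of -0.27. JAK1, a kinase of the type I and type II interferon receptors, fell from 76.7 ± 8.51 to 52.98 ± 3.55 RPKM (SD, n = 3 each, log2 fold change -0.52, adjusted p = 0.303), and did so whichever sample was left out. IFNGR1, the binding chain of the interferon-γ receptor, fell from 19.1 ± 1.01 to 14.8 ± 1.29 RPKM (-0.35, adjusted p = 0.316), past the threshold in 1 of 6 fits with a sample left out. SOCS3, a feedback inhibitor of cytokine signaling and next in level to JAK1, was at 33.7 ± 3.585 and 25.6 ± 3.27 RPKM (-0.39, adjusted p = 0.347). All samples were lower with siRNA than in any control in 7 of the 10 genes, beside 8.07% of all tested genes. The same separation was found in 5 of 17 tested transcription regulators, 3 of 11 proteasome genes and 2 of 9 other class I and class I-like genes. It was found in 2 of 16 interferon-inducible genes, 1 of 8 turnover and checkpoint genes and 0 of 13 peptide loading genes.

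Interferon-inducible genes outside the class I route lay on both sides of 0. Of 32 listed, 16 were tested, 9 of these were below 0 and the median was -0.11. PARP14 was the 1 past the threshold and fell from 3.955 ± 0.811 to 2.48 ± 0.202 RPKM (SD, n = 3 each, log2 fold change -0.50, adjusted p = 0.307), a call that held in 1 of 6 fits with a sample left out. ISG15 and IFI6, the most abundant, had log2 fold changes of 0.19 (adjusted p = 0.85) and -0.12 (adjusted p = 0.879). IFIT1 was past the threshold with the block, as were 7.57% of all tested genes, and higher (log2 fold change 0.66, adjusted p = 0.116, and adjusted p = 0.697 without it). It was at 11.2, 14.6 and 2.15 RPKM with siRNA and at 6.15, 6.77 and 1.75 RPKM in controls. IFIT2, IFIT3 and OASL were likewise lowest in replicate 3 of each group, whereas IFI35 was highest there. The cause of this difference between replicate numbers was not tested. Genes of class I turnover and of its checkpoints had none of 8 tested past the threshold (median -0.01), among them VCP (0.07, adjusted p = 0.862) and DERL1 (0.003, adjusted p = 0.995). No gene of class II presentation reached the filter, and the highest value among the 9 with one was 0.502 RPKM, of HLA-DMA.

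**Figure D5:**
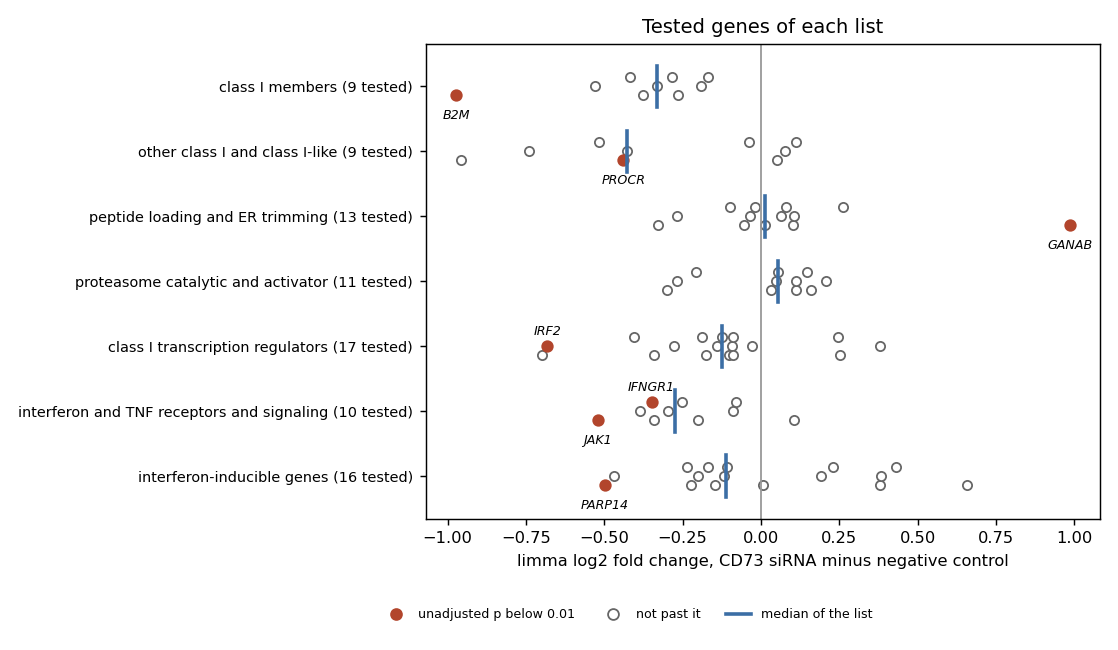
Limma log2 fold change (horizontal axis, CD73 siRNA minus negative control) of each tested gene in the class I group and in 6 other lists; filled points are past an unadjusted p of 0.01 and blue lines mark list medians. The class I median (-0.33) and that of the other class I genes (-0.43) lie left of 0. Those of the peptide loading list (0.01) and of the proteasome list (0.05) lie at or right of 0. TAP1, TAP2, TAPBP, PSMB8 and PSMB9 are counted in the class I group and not in either of those lists.

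Over the 6 samples the levels of the 9 genes varied together. The median Pearson r of the 36 pairs was 0.682 (range 0.0504 to 0.979), and 0.733 without TAPBP, a description of 6 samples that includes the difference between the groups. Outside the lists, the tested genes most like the mean standardized level of the 9 were ECE2 (r = 0.995), IL4R (r = 0.995), NDUFV3 (r = 0.994), MRPL34 (r = 0.994) and TNFAIP2 (r = 0.994), over the same 6 samples. TNFAIP2, first described as a TNF-inducible gene, was at 4.82, 7.06 and 5.60 RPKM with siRNA and at 17.67, 8.50 and 10.76 RPKM in controls. IL4R, a chain of the interleukin-4 receptor, was at 3.55, 4.42 and 3.88 RPKM and at 10.61, 6.24 and 6.42 RPKM. Control replicate 1 was the highest sample in each, which follows from how these genes were chosen.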

How the data were processed

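RNA from 6 samples of the PANC-1 line, 3 transfected with CD73 siRNA and 3 with negative control siRNA, had been sequenced by the authors. The deposited files hold an RPKM value (reads scaled to exon length and library total) for each of 30735 genes, a unit read from the values. After multiplication by merged exon lengths of GENCODE release 29 (GRCh38), 95.1% to 95.2% of genes under 1000 reads came to a whole number of reads within 0.02, with library totals of 15009113 to 16836208. The submitters' processing notes name bcl2fastq, Bowtie2 2.2.3, HTSeq 0.6.0 and hg38. Annotation release, strandedness and the handling of reads with several matches are not given in the sources used here. A symbol was matched to 30384 identifiers, those of the 9 genes included.

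Groups and replicate numbers came from the sample titles. The 12527 genes that reached 1 RPKM in 3 or more samples were compared on log2(RPKM + 1) with limma 3.58.1 in R 4.3.3 (lmFit, then eBayes with a trend), with Benjamini-Hochberg adjustment over all of them, and fold changes on this scale understate those of low genes. A call is an unadjusted p below 0.01, with the adjusted p beside it. The study gives a p below 0.01 without naming a test or an adjustment for these data. Single genes and ratios had an exact two-sided permutation test, which for 3 against 3 cannot go below 0.1. Deviations from the group means correlated at 0.2, 0.48 and 0.55 between samples of the same number and at -0.44 to -0.01 otherwise (12527 genes), so the numbers were taken to pair the samples. Deviations within a group cancel out, so the negative correlations are not independent of the positive ones. The main fit, which the study's unblocked comparison set, and the exact permutation tests did not use this pairing. A fit with this number as a block was run as well. The study calls the samples separate knockdown experiments, but no label states separate cultures, so p-values measure the spread between these samples.

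The members, lists and tests were chosen with earlier results of these data known. All 9 members are named. Of each further list, the genes past the threshold and the 2 with the highest mean RPKM are named, with the catalytic proteasome subunits and the 5 unlisted genes most like the members. Some genes that the rule names are not reported here. Genes named beyond this rule were chosen after their values were seen. Scripts were tested on simulated data. Alternatives were a pseudocount of 0.1, no filter, 2 other scalings, no variance trend, the block, and each sample left out. Promoter windows came from RefSeq (GRCh38.p14).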

Additional observations from a re-analysis of the deposited data

How the results depend on the processing

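Of 108 alternative values for the 9 genes, none changed direction and 105 stayed on their side of the threshold. B2M stayed past it in all 12 (log2 fold change -1.12 to -0.74 with 1 sample left out, adjusted p 0.0958 to 0.751), and no gene had an adjusted p below 0.05 in any. The exceptions were PSMB8 with the replicate block (-0.42, now past it), HLA-B without control replicate 2 (-0.69 to -0.33 over the fits with 1 sample left out) and PSMB8 without control replicate 3 (-0.57 to -0.33). The block changed no other call among the 9 genes and NT5E. No call was possible for the 3 ratios. Their exact permutation p cannot go below 0.1, and flipping signs of the differences within replicate numbers gave its smallest possible p of 0.25 for each. The count of the 9 genes past the threshold was 1 to 2 with 1 sample left out and 2 with the block. Over all genes the count was 392. It was 948 with the block and ran from 116 (without siRNA replicate 1) to 792 (without control replicate 2), with 188 and 258 without control replicates 1 and 3. Sum scaling gave 325. The cause was not tested. The 2 other scalings divided each sample by its own factor. On the log2 scale, the mean factor of the siRNA samples minus that of the controls was 0.02 for median scaling and -0.03 for sum scaling. Among the listed genes, in alternatives chosen after seeing the data, JAK1 and KRT8 stayed past the threshold in 12 of 12, IRF2 in 11, GANAB and KRT18 in 8, PARP14 in 6, PROCR in 5 and IFNGR1 in 4, none changing direction. GANAB (0.73 to 1.29 over all alternatives) was not past it without siRNA replicate 1, siRNA replicate 2 or control replicate 3, and KRT18 (-0.82 to -0.51) not without siRNA replicate 1 or 3 or control replicate 1 or 3. With 1 sample left out, PROCR (-0.56 to -0.38) and PARP14 (-0.60 to -0.37) were past it only without control replicate 2, and IFNGR1 (-0.41 to -0.31) only without siRNA replicate 2. Counting further rows with a member's symbol was not run, since there were 0. Depth was lowest for PSMB9 (95 reads) and PSMB8, where counting error is largest.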
